A study of Mus musculus with 18 samples.

Results

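The transcripts described here are those of 10 genes of lipid-associated macrophages, Cd68, Trem2, Gpnmb, Spp1, Cd9, Itgax, Lyz2, Tyrobp, Fabp5 and Ccr2, chosen by their symbols out of 54532 genes measured in mouse liver. Livers of 18 male C57BL/6J mice were sequenced, 6 in each of 3 groups. Normal control mice (NC) received a standard diet without SZ-A, and whether they were given saline is not stated plainly in the study's methods. HFD control mice (HFD) received a high-fat diet for 14 weeks and then through the treatment period, without SZ-A. By the study's methods HFD controls were given saline, by mouth or by injection. SZ-A mice received the same high-fat diet and, after those 14 weeks, the alkaloids of Ramulus Mori (SZ-A), an extract of mulberry twig, for 6 weeks by the study's methods or 8 weeks by the deposited description. The mice were 6 weeks old on arrival, acclimatized for 1 week and were fasted overnight before tissue was taken. The study gave SZ-A at several doses by mouth and also by injection, and which of these the sequenced mice received was not given in the sources used here. For the library NC6 the diet label (high-fat) and the title (control) disagree, and it was grouped by title as NC. The HFD and SZ-A groups model diet-induced fatty liver, and all libraries come from whole tissue without sorted cells, so that fewer macrophages and less RNA per macrophage cannot be told apart.

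Macrophages that gather where lipid accumulates, in obese adipose tissue and in fatty liver, take up lipid and dying cells and carry a shared set of transcripts. TREM2 is a surface receptor for lipids and lipoproteins that signals through the adaptor TYROBP and the kinase SYK. In fatty liver such cells are known to arise largely from blood monocytes that enter through the chemokine receptor CCR2, whereas resident Kupffer cells carry CLEC4F, TIMD4 and VSIG4. The 10 genes are not equally specific: CD68, LYZ2 and TYROBP are found in most macrophages, and CD9, FABP5 and osteopontin (Spp1) are made by other liver cells as well.

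RefSeq promoters (GRCm38.p6, 250 bases before to 50 after the transcript start) matched 8 of the 10 genes, with 9 windows in all since Spp1 has more than 1 entry. Tyrobp and Fabp5 were not matched. The windows were searched on both strands for GAGGAA, the core of sites of the macrophage factor PU.1, for the AP-1 site TGACTCA, and for TCACGTG, bound by TFE and MITF factors of lysosomal genes. GAGGAA was in 3 of the 9 windows (Cd68, Trem2, 1 of Spp1) and in 28.3% of all 32851 promoters. TGACTCA was in 3 of the 9 (Cd68, Itgax, Gpnmb) and in 5.2% of all. TCACGTG was in 0 of the 9 and in 3.77% of all. None of these letters was found for Cd9, Ccr2 or Lyz2, and no matches overlapped. The upstream sequences of Cd68, Trem2 and Itgax, and 27 bases at the start of Gpnmb, are shown because these genes rose with the diet below and hold a match. Capitals mark the matches, and a match on the opposite strand reads TTCCTC or TGAGTCA. In Cd68 (chr11:69666171-69666420, minus strand) GAGGAA starts 225 bases and the opposite-strand AP-1 letters start 149 and 24 bases before the transcript start. In Trem2 (chr17:48346151-48346400, plus strand) the opposite-strand GAGGAA letters start 40 bases before it, and in Itgax (chr7:128129300-128129549, plus strand) the AP-1 letters start 56 bases before it. In Gpnmb (chr6:49036516-49036542, plus strand) the AP-1 letters start 8 bases after the RefSeq start, ahead of the gene's start in the deposited annotation. A match is a description of the letters only, and no binding was measured.
Cd68: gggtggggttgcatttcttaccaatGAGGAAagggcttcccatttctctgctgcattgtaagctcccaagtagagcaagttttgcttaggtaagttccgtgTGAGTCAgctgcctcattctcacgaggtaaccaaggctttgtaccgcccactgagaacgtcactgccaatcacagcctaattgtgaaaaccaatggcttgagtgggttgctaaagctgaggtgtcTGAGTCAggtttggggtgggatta
Trem2: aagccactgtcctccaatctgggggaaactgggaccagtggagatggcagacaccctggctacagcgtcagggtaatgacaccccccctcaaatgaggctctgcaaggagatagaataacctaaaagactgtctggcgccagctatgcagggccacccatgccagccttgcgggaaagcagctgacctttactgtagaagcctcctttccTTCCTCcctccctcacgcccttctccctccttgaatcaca
Itgax: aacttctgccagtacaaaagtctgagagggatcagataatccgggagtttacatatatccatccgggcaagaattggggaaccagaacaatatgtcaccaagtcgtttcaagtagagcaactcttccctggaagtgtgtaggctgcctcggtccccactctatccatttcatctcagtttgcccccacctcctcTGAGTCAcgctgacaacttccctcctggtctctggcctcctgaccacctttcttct
Gpnmb: caggggcaagTGACTCAtgagcacgag

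Between 17163191 and 20493907 fragments per mouse fell on genes. Values are FPKM, in which fragments are divided by gene length and by the size of the library. Liver identity was plain in each library, with albumin (Alb) between 16120 and 37150 FPKM over the 18 mice. Of the adipocyte genes, Adipoq and Plin1 stayed at or under 0.62 FPKM, whereas adipsin (Cfd) rose from 2.91 ± 2.67 FPKM in NC to 52.4 ± 43.6 FPKM in HFD mice (SD, n = 6), and the summed level of 9 T and NK cell genes reached at most 3.75 FPKM. The library SZ-A5 stood apart with 8.45 FPKM of the bile duct keratin Krt19, against at most 0.99 in the other 17 mice, and results whose call changes without it are given with that value.

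Levels of the 10 genes spanned more than 2 orders of magnitude. In NC livers the mean level ran from 56.3 FPKM for Lyz2, above every other member in every NC mouse, down to 0.13 FPKM for Gpnmb. Spp1 (17.0 FPKM), Tyrobp (16.3 FPKM), Cd9 (7.21 FPKM), Cd68 (5.77 FPKM) and Fabp5 (1.70 FPKM) followed in that order, and each overlapped with its neighbour over the 6 mice. Itgax (0.19 FPKM), Ccr2 (0.18 FPKM) and Trem2 (0.14 FPKM) came last with Gpnmb. These 4 genes have a mean under 1 FPKM over the 18 mice and rest on few fragments, in NC mice 5 to 24 for Trem2, 6 to 37 for Gpnmb, 4 to 32 for Itgax and 9 to 39 for Ccr2. In HFD livers the order at the top was Lyz2 (114.0 FPKM), Tyrobp (29.1 FPKM), Spp1 (26.1 FPKM) and Cd68 (14.3 FPKM), and here Cd68 and Cd9 (5.81 FPKM), which overlapped in NC, did not. Gpnmb rose from last to sixth place in mean level (2.36 FPKM), although it overlapped with both neighbours.

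**Figure D1:**
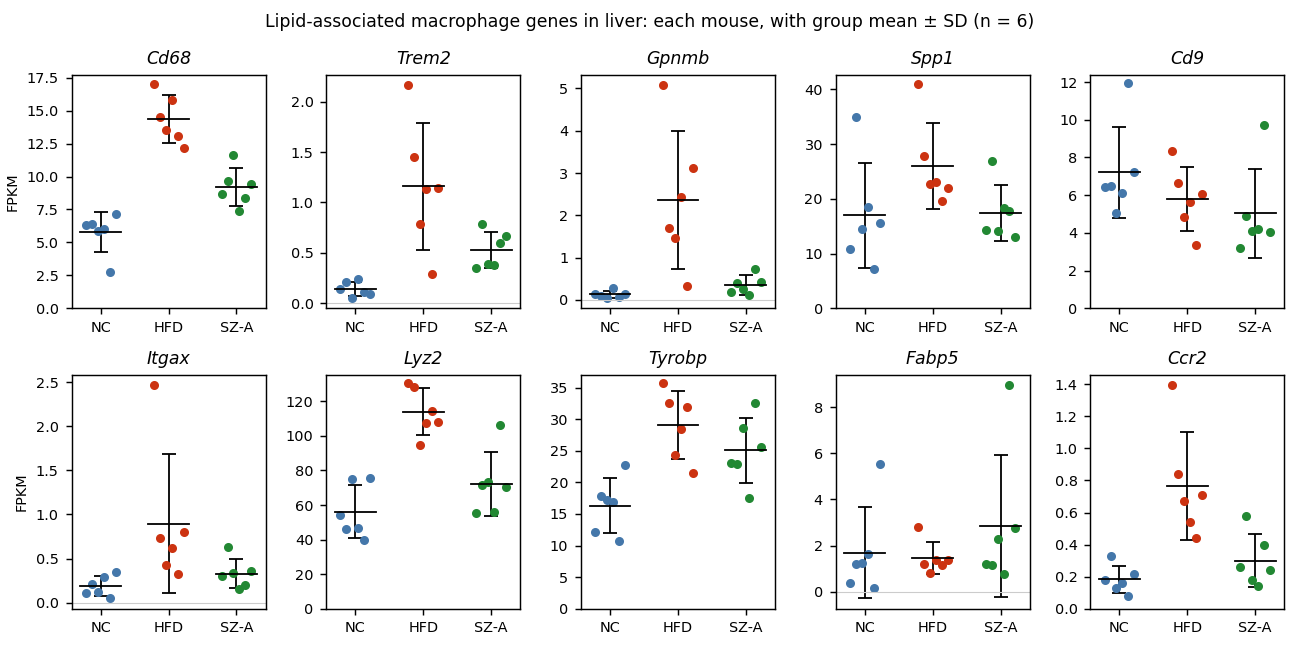
Level of each of the 10 genes in FPKM (vertical axis, linear, a separate scale per gene) in 6 NC, 6 HFD and 6 SZ-A livers. Each point is 1 mouse, in the order of mouse number, and bars give the group mean ± SD. Cd68 separates all 3 groups, with HFD mice between 12.1 and 17.0 FPKM and SZ-A mice between 7.39 and 11.6 FPKM, while Cd9 and Fabp5 overlap in all groups.

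Of the 10 transcripts, 7 were higher in HFD than in NC livers. The largest differences were in Gpnmb, 18.1-fold by group means, and Trem2, 8.20-fold, and the smallest among the 7 was in Tyrobp, 1.79-fold. Spp1, Cd9 and Fabp5 did not pass the test. Calls required a Benjamini-Hochberg adjusted p below 0.05 and a fold change over 1.2 in limma fits on log2(FPKM + 0.1), on which scale fold changes of low genes are understated. Of the 6 members with a mean of at least 1 FPKM, 3 were called higher and 0 lower, where 10.7% of the 10216 genes tested were called higher and 9.49% lower. When genes with a mean of at least 0.1 FPKM were fitted, 7 of 10 were called higher and 0 lower, where 8.87% of 15996 genes were called higher and 6.42% lower. Values of 5 members did not overlap between the groups, all higher in HFD, against 4.76% of the 15996 genes.

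Cd68 (ENSMUSG00000018774, chr11:69664213-69666153, minus strand, protein coding) encodes a lysosomal glycoprotein of phagocytes. It ranged from 2.80 to 7.17 FPKM in NC mice (median 6.19 FPKM) and from 12.1 to 17.0 FPKM in HFD mice (median 14.0 FPKM). The groups did not overlap. The log2 fold change was 1.35 (SE 0.19, limma adjusted p = 0.00048, higher in 6 of 6 mice).

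Lyz2 (ENSMUSG00000069516, chr10:117277331-117282321, minus strand) encodes lysozyme, an antibacterial enzyme of macrophages and neutrophils. It ranged from 40.0 to 75.6 FPKM in NC (median 50.3 FPKM) and from 94.8 to 131 FPKM in HFD mice (median 111 FPKM), again without overlap. The log2 fold change was 1.05 (SE 0.16, limma adjusted p = 0.000718). Lyz2 has a near-identical copy in the mouse, Lyz1, and reads that fit both genes may be split by the counting.

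Tyrobp (ENSMUSG00000030579, chr7:30413760-30417585, plus strand) encodes the signalling adaptor of TREM2 and of other myeloid and NK receptors. It ranged from 10.6 to 22.8 FPKM in NC (median 17.0 FPKM) and from 21.4 to 35.8 FPKM in HFD mice (median 30.2 FPKM). Only HFD6, at 21.4 FPKM, lay under the highest NC mouse, NC6. The log2 fold change was 0.86 (SE 0.18, limma adjusted p = 0.00496).

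Trem2 (ENSMUSG00000023992, chr17:48346401-48354147, plus strand), the lipid receptor, was read at 0.06 to 0.24 FPKM in NC (median 0.13 FPKM) and at 0.29 to 2.16 FPKM in HFD mice (median 1.14 FPKM). Every HFD mouse lay above every NC mouse, although HFD5 did so by little. The log2 difference was 2.25 (SE 0.36, exact two-sided permutation p = 0.00216, the smallest that 924 splits of 6 against 6 mice allow, and limma adjusted p = 0.0015 among genes of at least 0.1 FPKM).

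Gpnmb (ENSMUSG00000029816, chr6:49036546-49070929, plus strand) encodes a membrane glycoprotein of lysosome-rich macrophages. It was read at 0.05 to 0.28 FPKM in NC (median 0.11 FPKM) and at 0.33 to 5.08 FPKM in HFD mice (median 2.06 FPKM), and HFD5 was again the HFD mouse nearest to NC. On the log2 scale the difference was 3.14 (SE 0.48, exact permutation p = 0.00216, limma adjusted p = 0.0012 among genes of at least 0.1 FPKM).

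Ccr2 (ENSMUSG00000049103, chr9:124101950-124113557, plus strand), the receptor that draws monocytes out of the bone marrow, ranged from 0.08 to 0.33 FPKM in NC (median 0.17 FPKM) and from 0.44 to 1.39 FPKM in HFD mice (median 0.69 FPKM). The groups did not overlap. Its log2 difference was 1.59 (SE 0.26, exact permutation p = 0.00216, limma adjusted p = 0.00174 among genes of at least 0.1 FPKM).

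Itgax (ENSMUSG00000030789, chr7:128129547-128150657, plus strand) encodes CD11c, an integrin of dendritic cells and of macrophages in obese tissue. It ranged from 0.05 to 0.35 FPKM in NC (median 0.17 FPKM) and from 0.33 to 2.46 FPKM in HFD mice (median 0.68 FPKM). HFD5 lay just under NC6, the only overlap, and HFD1 at 2.46 FPKM was far above the next HFD mouse at 0.80 FPKM. The log2 difference was 1.60 (SE 0.40, exact permutation p = 0.00433, limma adjusted p = 0.0181 among genes of at least 0.1 FPKM). Without HFD1 it was 1.28 (exact permutation p = 0.00866).

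Spp1 (ENSMUSG00000029304, chr5:104435118-104441050, plus strand) encodes osteopontin, a secreted ligand of integrins and CD44. It ranged from 7.27 to 35.0 FPKM in NC (median 15.1 FPKM) and from 19.6 to 41.0 FPKM in HFD mice (median 23.0 FPKM). The NC mouse NC2, at 35.0 FPKM, was above 5 of the 6 HFD mice. On the log2 scale Spp1 differed by 0.74, with a 95% interval of 0.08 to 1.40 (limma adjusted p = 0.101). Without NC2 it was 0.98 and was called (limma adjusted p = 0.0153).

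Cd9 (ENSMUSG00000030342, chr6:125460266-125494791, minus strand), a tetraspanin of many cell types, ranged from 5.06 to 11.9 FPKM in NC (median 6.47 FPKM) and from 3.38 to 8.36 FPKM in HFD mice (median 5.84 FPKM). The groups overlapped widely, and the log2 difference of -0.30 had a 95% interval of -0.78 to 0.17 (limma adjusted p = 0.349). Fabp5 (ENSMUSG00000027533, chr3:10012548-10016607, plus strand), a fatty acid carrier of macrophages and epithelia, ranged from 0.16 to 5.54 FPKM in NC (median 1.24 FPKM) and from 0.82 to 2.79 FPKM in HFD mice (median 1.29 FPKM). NC6 and NC5 were the highest and the lowest of these 12 mice. The log2 difference of 0.37 had a 95% interval of -0.90 to 1.64 (limma adjusted p = 0.697), and Fabp5 has processed copies in the genome that can take up its reads.

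**Figure D2:**
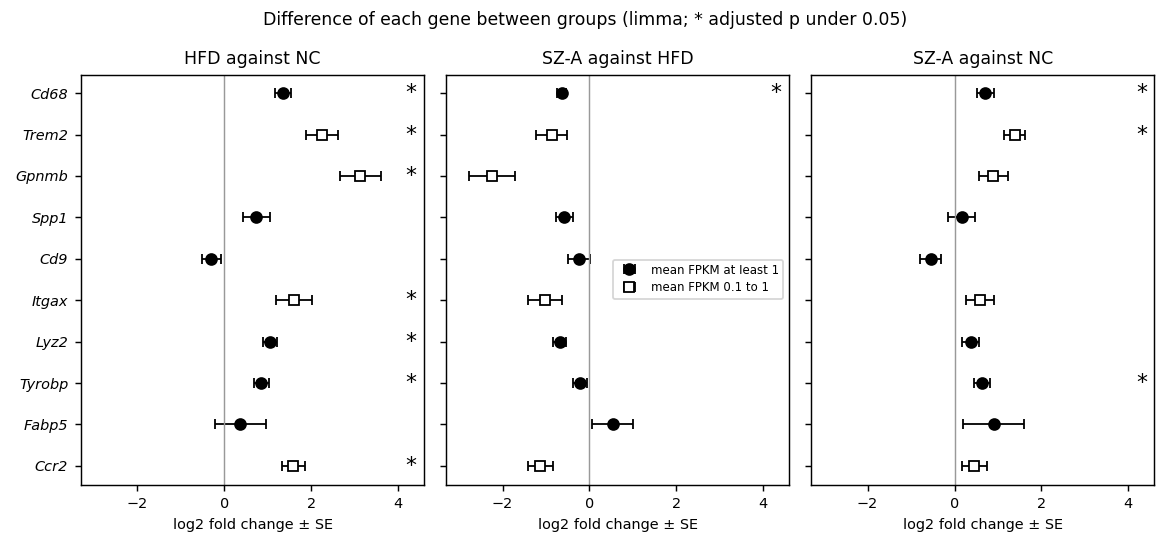
Difference of each gene in log2(FPKM + 0.1) (horizontal axis, point ± SE, 6 mice per group) in the 3 comparisons. Filled circles come from the fit of genes with a mean of at least 1 FPKM and open squares from the fit at 0.1 FPKM, and an asterisk marks an adjusted p under 0.05, which 7 genes reach for HFD against NC.

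Other genes ascribed to lipid-associated macrophages were mostly higher in HFD livers. Of 28 such genes, 26 were tested at a mean of at least 1 FPKM, of which 17 were called higher and 3 lower in HFD. Over all genes of that filter 10.7% were called higher and 9.49% lower. The median log2 fold change of the 26 was 0.63, beside -0.03 over all genes tested. Capg, an actin-capping protein of myeloid cells, rose from 1.06 ± 0.18 to 3.55 ± 0.85 FPKM (SD, n = 6, limma adjusted p = 4.1e-05). Lgals1, galectin-1, rose from 9.90 ± 5.13 to 68.2 ± 13.1 FPKM (limma adjusted p = 0.000151). The scavenger receptor Cd36, which hepatocytes also express, rose from 24.6 ± 9.95 to 96.5 ± 16.4 FPKM, and the β-glucan receptor Clec7a from 1.48 ± 0.48 to 5.92 ± 1.94 FPKM. The 3 that fell were Ctsl, Grn and Mmp14, the lysosomal protease cathepsin L, progranulin and a membrane-bound matrix protease, with log2 fold changes of -0.65, -0.61 and -0.57.

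Around TREM2 and TYROBP, 13 genes were followed, mostly of signal transduction and receptor shedding, with the adaptor Hcst and the membrane protein Ms4a7. Among genes of at least 0.1 FPKM, 7 of these were called higher and 0 lower in HFD. Over all genes of that filter 8.87% were called higher and 6.42% lower. The median log2 fold change of the 13 was 0.58, beside -0.01 over all genes. Lat2, at 0.04 FPKM in NC and 0.05 FPKM in SZ-A mice, passed the filter only through HFD mice (0.23 FPKM). Vav1, an exchange factor of blood cells, rose by 0.92 and Plcg2, a phospholipase that acts below SYK, by 1.13 on the log2 scale. Of 4 chemokine genes listed for the CCR2 axis, the CCR2 ligands Ccl2 and Ccl7 were tested and both were called higher. Ccl2 rose from 0.24 ± 0.19 to 2.57 ± 1.14 FPKM (limma adjusted p = 0.000639). Of 7 receptor subunits for osteopontin, 6 were tested at 1 FPKM, where 10.7% of all genes were called higher. Of these 6, 3 were called higher, namely Itgb5, Itga9 and Cd44. At 0.1 FPKM the call of Cd44 was lost (limma adjusted p = 0.0557), which left 2 of 7.

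General macrophage markers rose as well. Of 16 pan-macrophage genes, 13 were tested at 1 FPKM, of which 10 were called higher and 0 lower, with a median log2 fold change of 0.88. Over all genes of that filter 10.7% were called higher and 9.49% lower. The summed level of the 16 was 137 to 215 FPKM in NC and 221 to 313 FPKM in HFD mice. Spi1, which encodes PU.1, rose from 2.25 ± 0.45 to 4.67 ± 0.87 FPKM (limma adjusted p = 0.000444). Of 10 Kupffer cell genes 3 were called higher at 1 FPKM (Il18bp, Slc40a1 and Cd5l), where 10.7% of all genes were. At 0.1 FPKM 2 were called higher, where 8.87% of all genes were, and Cd5l was lost (limma adjusted p = 0.0506). The median log2 fold change of the 10 was 0.33. Their summed levels were 128 to 212 FPKM in NC and 161 to 333 FPKM in HFD mice. Among genes of at least 0.1 FPKM, 4 of 5 tested monocyte genes and 3 of 5 tested neutrophil genes were called higher. Over all genes of that filter the share was 8.87%. The filter takes the mean over all groups, and genes of these lists under it were not tested. The monocyte gene F13a1 (0.05 FPKM in NC, 0.28 FPKM in HFD mice) was under 0.1 FPKM in NC. So was the neutrophil gene Cxcr2 (0.06 FPKM in NC, 0.18 FPKM in HFD mice). Both passed the filter through the other groups. The summed level of the 7 monocyte genes was 2.34 to 4.49 FPKM in NC and 5.72 to 11.6 FPKM in HFD mice, with S100a4 at 0 in all NC mice. That of the 9 neutrophil genes was 1.53 to 6.99 and 6.09 to 20.9 FPKM, with Ly6g at 0 in all NC mice. The part of these cells in the members' differences was not tested.

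The members differed in how far they moved relative to the pan-macrophage genes. For this description each member's log2 level was taken minus the mean log2 level of the 16 pan-macrophage genes in the same mouse. From NC to HFD the mean of this relative level was 2.30 higher for Gpnmb, 1.42 for Trem2, 0.77 for Itgax, 0.76 for Ccr2 and 0.51 for Cd68. For Lyz2 it was 0.22 and for Tyrobp 0.02 higher, so that these genes moved about as the pan-macrophage genes did. Cd9 was 1.13, Fabp5 0.46 and Spp1 0.09 lower. Of the 10, only Cd68 and Cd9 did not overlap between the groups of 6 mice on the relative scale. Single HFD mice stayed near NC for Trem2, Gpnmb, Itgax and Ccr2.

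**Figure D3:**
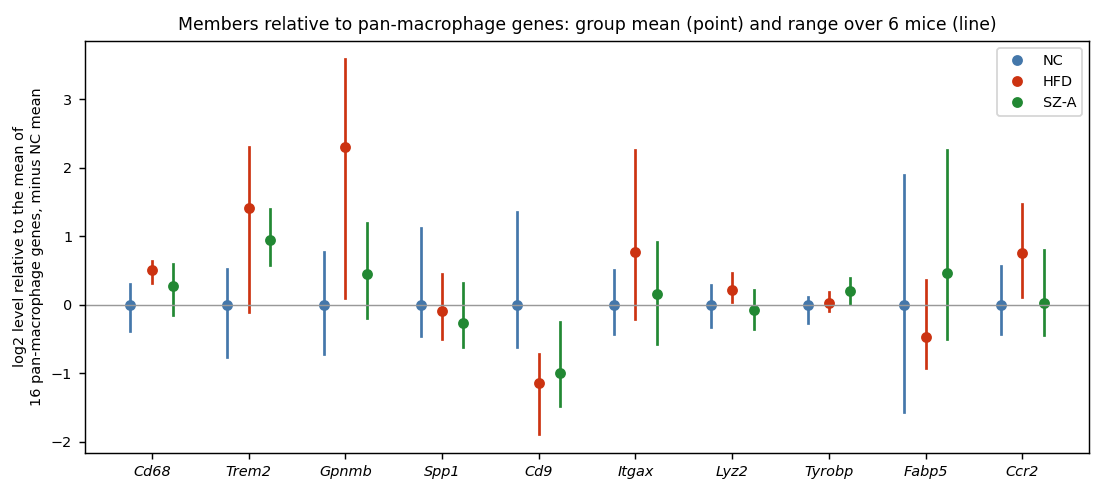
Log2 level of each gene relative to the mean of 16 pan-macrophage genes in the same mouse, minus the NC mean (vertical axis), as group mean (point) and range over 6 mice (line). Gpnmb and Trem2 lie 2.30 and 1.42 above NC in HFD mice, Tyrobp 0.02 above, and Cd9 1.13 below.

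HFD mice differed widely among themselves. HFD1 had the highest level of the group in all 10 members, and HFD5 the lowest in 6 (Trem2, Gpnmb, Spp1, Cd9, Itgax and Ccr2). Trem2 was 2.16 FPKM in HFD1 and 0.29 FPKM in HFD5, and Gpnmb 5.08 and 0.33 FPKM. Mmp12, a macrophage elastase, showed the same order with 4.37 FPKM in HFD1 and 0.51 FPKM in HFD5. Kupffer cell genes stood the other way round in these mice. Clec4f was lowest in HFD1 (27.2 FPKM) and highest in HFD5 (72.3 FPKM), and the phosphatidylserine receptor Timd4 was 1.15 FPKM in HFD1 and 6.26 FPKM in HFD5. The scavenger receptor Marco was 4.55 FPKM in HFD1 and 42.0 FPKM in HFD5. Cd68 and Lyz2 differed much less between HFD1 (17.0 and 131 FPKM) and HFD5 (13.1 and 115 FPKM).

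**Figure D4:**
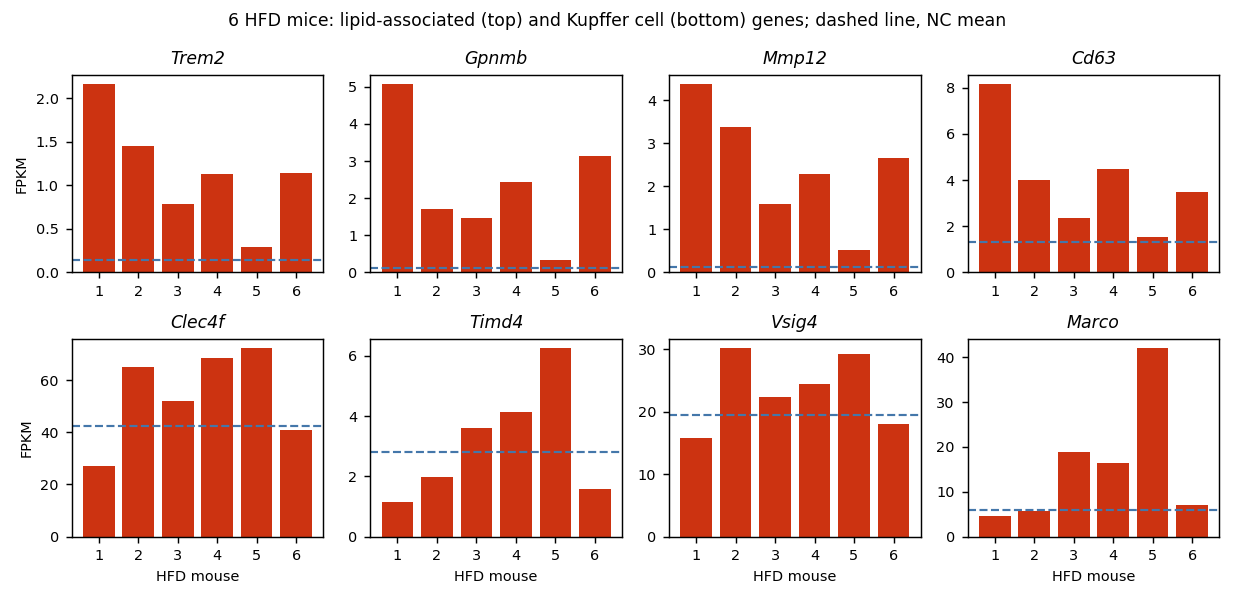
FPKM (bars from 0, a separate scale per gene) of Trem2, Gpnmb, Mmp12 and Cd63 in the upper row and of Clec4f, Timd4, Vsig4 and Marco in the lower row, in HFD mice 1 to 6. The dashed line is the NC mean. HFD1 is highest in the upper row and lowest in the lower row, where HFD5 is highest for Clec4f, Timd4 and Marco.

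Over all 18 mice, with each group's mean removed, 44 of the 45 pairs of members had a Pearson's r above 0, with a median of 0.45. The share over pairs of other genes was not worked out, so whether the count is particular to the members cannot be said. HFD1 was highest of its group in all 10 members and NC5 lowest of its group in 7. For Cd68 and Lyz2, r went from 0.47 to 0.17 without the 2 mice farthest from the Cd68 median. All these values of r are a description over libraries that share depth and tissue composition, and carry no test. Trem2 and Gpnmb varied together (r = 0.86, Spearman's rho = 0.80, r = 0.66 without the 2 mice farthest from the median, HFD1 and HFD5), as did Trem2 and Ccr2 (r = 0.71, rho = 0.70, r = 0.59 without the same 2 mice). Tyrobp and Fabp5 formed another close pair (r = 0.87, rho = 0.81, r = 0.81 without the 2 extreme mice). Trem2 had little relation to Tyrobp (r = 0.12, rho = 0.21) or Lyz2 (r = 0.06, rho = 0.19). With Timd4, Trem2 had r = -0.76 (rho = -0.69, r = -0.51 without the 2 extreme mice), and with Marco r = -0.70 (rho = -0.68, r = -0.49). The other Kupffer cell genes set against Trem2 were Clec4f and Vsig4. For Clec4f r was -0.53 (rho = -0.29) and for Vsig4 -0.36 (rho = -0.12). Without HFD1 and HFD5 these values of r were -0.08 and 0.08, so the inverse relation was not shared by all Kupffer cell genes.

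Among 10210 other genes with a mean of at least 1 FPKM, those close to Cd68 in this measure included Specc1l (r = 0.96, rho = 0.93) and Cped1 (r = 0.90, rho = 0.78). Those closest to Spp1 were Ttyh2 (r = 0.87), Naip2 (r = 0.85) and Ndfip2 (r = 0.80), to Cd9 Lmna (r = 0.92), Fkbp1a (r = 0.90) and Chmp2b (r = 0.88), and to Lyz2 Itgb2 (r = 0.88), Slc37a3 (r = 0.86) and Ctss (r = 0.82). Without the 2 mice farthest from each member's median, these values of r lay between 0.67 and 0.88. Trem2 and Gpnmb were looked at after their values were seen. Trem2 was closest to Mmp12 (r = 0.88, rho = 0.94), and Gpnmb to the collagen genes Col1a2 (r = 0.92, rho = 0.87) and Col1a1 (r = 0.91, rho = 0.87).

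Treatment with SZ-A was compared with HFD alone to see whether the diet-raised transcripts were lower in treated mice. Mean levels of 9 of the 10 members were lower in SZ-A than in HFD livers, from 6.71-fold in Gpnmb to 1.15-fold in Cd9, and that of Fabp5 was higher. Only Cd68 was called, lower, out of 6 members tested at 1 FPKM, where 0.0685% of genes were called lower and 0.0783% higher. Among genes of at least 0.1 FPKM, 0 of the 10 members were called by limma, where 0.0125% of genes were called lower and 0.0313% higher. Limma's unadjusted p was under 0.05 for 7 of the 10, as for 13.9% of genes, the exact permutation p for 6, and voom on the fragments called 0 of the 10 at this filter. Only Cd68 did not overlap between the groups, as did 0.563% of genes in the lower direction.

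Cd68 ranged from 7.39 to 11.6 FPKM in SZ-A mice (median 9.07 FPKM), under every HFD mouse. The log2 fold change was -0.64 (SE 0.11, limma adjusted p = 0.0451, lower in 6 of 6 mice). The call was close to the threshold. It was lost without HFD1 (limma adjusted p = 0.116), HFD2 (0.125), HFD3 (0.0674), HFD4 (0.113), SZ-A1 (0.119), SZ-A4 (0.0945), SZ-A5 (0.0592) or SZ-A6 (0.102), and with the lower filter of 0.1 FPKM (0.0749). The direction and size stayed, between -0.82 and -0.58, in all 27 alternatives.

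Gpnmb ranged from 0.11 to 0.74 FPKM in SZ-A mice (median 0.33 FPKM). All SZ-A mice lay under 5 of the HFD mice, and HFD5, at 0.33 FPKM, lay among them. Its difference was -2.24 on the log2 scale (SE 0.52, exact permutation p = 0.00866, limma adjusted p = 0.114 among genes of at least 0.1 FPKM). Without HFD5 it was -2.67 and was called (limma adjusted p = 0.0434).

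Trem2 ranged from 0.35 to 0.78 FPKM in SZ-A mice (median 0.49 FPKM), and the highest SZ-A mouse came close to HFD3, at 0.79 FPKM, while HFD5 lay under all of them. The log2 difference was -0.87 (SE 0.35, exact permutation p = 0.0541, limma adjusted p = 0.302). Without HFD5 it was -1.17 (exact permutation p = 0.00433), and without HFD1 it was -0.66 (exact permutation p = 0.11). Ccr2 ranged from 0.14 to 0.58 FPKM (median 0.25 FPKM), and 5 of 6 SZ-A mice lay under every HFD mouse. Its log2 difference was -1.13 (SE 0.29, exact permutation p = 0.00649, limma adjusted p = 0.132). Itgax ranged from 0.15 to 0.63 FPKM (median 0.32 FPKM), with a log2 difference of -1.02 (SE 0.39, exact permutation p = 0.0238, limma adjusted p = 0.276). Its exact p was 0.0519 without SZ-A1, 0.0628 without SZ-A4 and 0.0606 without SZ-A5, and the difference was -0.69 without HFD1 (exact permutation p = 0.0476).

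Lyz2 ranged from 55.4 to 106 FPKM in SZ-A mice (median 71.1 FPKM), with SZ-A5 alone inside the HFD range. Its log2 fold change was -0.68 (SE 0.14, limma adjusted p = 0.0865), and without SZ-A5 it was -0.80 and was called (limma adjusted p = 0.0212). Spp1 ranged from 13.04 to 27.0 FPKM (median 16.1 FPKM), 5 of 6 SZ-A mice lay under every HFD mouse, and the log2 fold change of -0.58 had a 95% interval of -1.01 to -0.15 (limma adjusted p = 0.201). Tyrobp stood apart from these, with 17.5 to 32.6 FPKM in SZ-A mice (median 24.3 FPKM) and a wide overlap with HFD. Its log2 fold change was -0.22 with a 95% interval of -0.55 to 0.12 (limma adjusted p = 0.548). Cd9 (3.19 to 9.74 FPKM in SZ-A, median 4.17 FPKM) and Fabp5 (0.77 to 8.93 FPKM, median 1.73 FPKM) overlapped widely with HFD, and in both the highest SZ-A mouse was SZ-A5. The intervals of their log2 fold changes were -0.80 to 0.30 and -0.51 to 1.57.

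Around the members, 2 of 26 other lipid-associated macrophage genes tested at 1 FPKM were called lower in SZ-A and 0 higher. Over all genes of that filter 0.0685% were called lower and 0.0783% higher. The median log2 fold change of the 26 was -0.28, beside 0.03 over all genes. The 2 called were Lgals1, which fell from 68.2 ± 13.1 to 20.8 ± 11.2 FPKM (SD, n = 6, limma adjusted p = 0.0298), and Cd36, which fell from 96.5 ± 16.4 to 43.4 ± 17.7 FPKM (limma adjusted p = 0.0382). At 0.1 FPKM only Lgals1 was called of 28 tested, where 0.0125% of all genes were called lower. Cd36 was not called there (limma adjusted p = 0.0651). Of 13 pan-macrophage genes tested 0 were called, although all 13 had lower values, with a median of -0.46 and a summed level of 194 to 272 FPKM in SZ-A mice. Limma's unadjusted p was under 0.05 for 7 of these 13, as for 14.8% of genes. None of the 13 genes of TREM2 and TYROBP signalling, the 2 tested CCR2 ligands, the 7 osteopontin receptor genes, or the 10 Kupffer cell genes was called at 0.1 FPKM. Limma's unadjusted p was under 0.05 for 7, 2, 3 and 0 of them, as for 13.9% of all genes. The medians of these lists were -0.32, -1.48, -0.17 and -0.11. Markers of other cells moved beside the members. All 5 tested monocyte and all 5 tested neutrophil genes had lower values in SZ-A mice at 0.1 FPKM, with medians of -0.57 and -0.56. All 8 hepatocyte genes had a log2 difference above 0, with a median of 0.27. For Ttr the mean FPKM was nonetheless slightly lower in SZ-A (3194) than in HFD mice (3206). Limma called 0 genes in these lists, and its unadjusted p was under 0.05 for 1, 1 and 4 of them. Summed levels in SZ-A mice were 3.59 to 8.90 FPKM for the 7 monocyte genes, with none at 0 in all mice, and 4.84 to 18.6 FPKM for the 9 neutrophil genes, with Ly6g and Camp at 0 in all mice. Those of the 8 hepatocyte genes were 32080 to 51700 FPKM in HFD and 39120 to 64520 FPKM in SZ-A mice. Cfd was 7.54 ± 11.7 FPKM in SZ-A mice, a log2 difference of -3.57 from HFD (limma adjusted p = 0.0877). The part of these cells in the members' differences was not tested.

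Relative to the pan-macrophage genes of the same mouse, the mean level from HFD to SZ-A was 1.85 lower for Gpnmb, 0.73 for Ccr2, 0.62 for Itgax, 0.47 for Trem2, 0.29 for Lyz2, 0.25 for Cd68 and 0.18 for Spp1, and it was 0.93 higher for Fabp5, 0.18 for Tyrobp and 0.15 for Cd9. The groups overlapped for all members on this scale.

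SZ-A mice were then compared with NC mice, which shows how far treated livers on the high-fat diet remained from control levels. The NC mice also serve in the comparison with HFD, and the HFD mice in both others, so that the comparisons are not independent. At 1 FPKM, Cd68 and Tyrobp were called higher out of 6 members tested, where 5.31% of genes were called higher. At 0.1 FPKM, 1 of 10 members was called higher, Trem2, where 3.03% of genes were. Cd68 and Trem2 did not overlap between the groups, as did 2.04% of genes in the higher direction.

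Trem2 kept a 3.73-fold higher mean in SZ-A than in NC mice, 0.53 ± 0.18 against 0.14 ± 0.07 FPKM (SD, n = 6). The log2 difference was 1.38 (SE 0.24, exact permutation p = 0.00216, limma adjusted p = 0.00697). Leaving out any 1 mouse kept it between 1.26 and 1.49. Gpnmb, by contrast, was 2.70-fold higher by means, with a log2 difference of 0.89 (exact permutation p = 0.0303, limma adjusted p = 0.144), and 3 of 6 SZ-A mice lay within the NC range. The exact p for Gpnmb passed 0.05 without NC2 (0.0584), NC3 (0.0671), NC5 (0.0584), SZ-A2 (0.0541), SZ-A5 (0.0584) or SZ-A6 (0.0541). Whether Trem2 and Gpnmb differed from each other in this respect was not tested.

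Cd68 was 1.59-fold higher in SZ-A than in NC mice (log2 fold change 0.71, SE 0.19, limma adjusted p = 0.0375), and every SZ-A mouse lay above every NC mouse. The call was lost, with adjusted p between 0.0501 and 0.0876, without any 1 of NC1, NC2, NC3, NC4, SZ-A1, SZ-A2, SZ-A3 or SZ-A6. Tyrobp was 1.54-fold higher (log2 fold change 0.64, SE 0.19, limma adjusted p = 0.0466), with SZ-A4 alone inside the NC range. That call held only without NC6 or SZ-A4 and was lost without any other 1 mouse, with adjusted p between 0.0613 and 0.103. For Lyz2 (0.37), Ccr2 (0.46), Itgax (0.59), Spp1 (0.16), Fabp5 (0.90) and Cd9 (-0.55) the log2 differences did not pass, with limma adjusted p from 0.184 to 0.794 by the fit that holds each gene. For Cd9 the difference was -0.76 and was called without SZ-A5 (limma adjusted p = 0.0214), and for Itgax the exact p without NC6 was 0.0498.

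Set side by side, the mean levels in NC, HFD and SZ-A livers were 5.77, 14.3 and 9.20 FPKM for Cd68. They were 0.14, 1.16 and 0.53 FPKM for Trem2, with SZ-A mice above all NC mice. For Gpnmb they were 0.13, 2.36 and 0.35 FPKM, and for Ccr2 0.18, 0.77 and 0.30 FPKM. Tyrobp, at 16.3, 29.1 and 25.0 FPKM, was the member with the smallest fold between HFD and SZ-A mice among the 7 that rose with the diet.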

How the data were processed

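Liver poly-A RNA of 18 mice was sequenced as 150 bp paired-end reads on an Illumina NovaSeq. The authors aligned reads to GRCm38 (mm10) with HISAT2 2.0.5, counted them with featureCounts 1.5.0-p3 per the submitters' processing notes, and deposited FPKM values per gene, unfiltered. The authors' own DESeq2 test was not repeated, and limma on the deposited FPKM was used in its place. For SZ-A against HFD the study reported more genes by its own test than limma called here (8 higher and 7 lower at 1 FPKM). Why the 2 differ was not tested. FPKM times gene length gave whole fragments for 100% of values (tolerance 0.05 of a fragment), from which the depth per mouse was worked back, and these fragments entered only the voom alternatives. FPKM follow the authors' library scaling, and poly-A selection leaves out RNA without a tail.

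Groups and replicate numbers were taken from sample titles. The members and gene lists were chosen with earlier results of these data known. Differences were tested with limma 3.58.1 in R 4.3.3 (lmFit, eBayes with trend) on log2(FPKM + 0.1), on the 2 groups of each comparison, for 10216 genes with a mean of at least 1 FPKM over the 18 mice, and for members under that filter with an exact two-sided permutation test and a limma fit of 15996 genes of at least 0.1 FPKM. P-values were adjusted over all genes fitted, and calls needed an adjusted p below 0.05 and a fold change above 1.2. The limma step was tested on simulated data. The study measured food intake per cage, but which mice shared a cage or an extraction day is not given, nor are batch labels. The p-values set group differences against the spread between these mice. An effect of cage or day cannot be told apart from that of the group. No 2 mice of a group had counts agreeing within sampling noise.

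All 10 members are named. For each gene list the text gives counts and up to 4 genes with the smallest adjusted p, and for 4 members of at least 1 FPKM the 3 closest genes by within-group correlation, of which 1 is not reported here. Clec4f, Timd4, Vsig4, Marco, Mmp12 and Cd63 in single HFD mice, Krt19, and Ctsl, Grn and Mmp14 were named after their values were seen. The coordinates of all 10 members matched GENCODE M21. Alternatives were pseudocounts of 1 and 0.01, mean FPKM filters of 0.1, 5 and none, rescaling to a common sum, median-ratio scaling, voom, all 18 mice in a single fit, eBayes without trend or robust, sample weights, a replicate block, other fold change minimums and each mouse left out. Combinations of the 0.1 FPKM filter with voom, the block, both rescalings or a mouse left out were added after seeing the data. Other steps ran in Python 3.11.15 (pandas 2.3.3, numpy 2.4.6; figures by matplotlib 3.10.9).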

Additional observations from a re-analysis of the deposited data

Results flagged for a closer look

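In 8 of the 30 sets of 6 mice (10 members in 3 groups) the highest or the lowest mouse stood far from the others by Dixon's test at the 95% level. That level means about 1 of 20 sets by chance only where values are normally distributed and the sets independent. Here the test ran on FPKM without a log, the sets share the same 18 mice, and all flags fell on NC5, NC6, HFD1 and SZ-A5. The count therefore cannot be set against that rate. Fabp5 had such a mouse in all groups, with NC6 at 5.54 FPKM, HFD1 at 2.79 FPKM and SZ-A5 at 8.93 FPKM. SZ-A5 also stood high for Cd9, at 9.74 FPKM, and for Lyz2, at 106 FPKM, and this is the mouse with 8.45 FPKM of Krt19. NC5 stood low for Cd68, at 2.80 FPKM, and high for Cd9, at 11.9 FPKM. HFD1 stood high for Itgax, at 2.46 FPKM. The cause of these values was not tested.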

How the results depend on the processing

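For HFD against NC, 3 members were called at a mean of at least 1 FPKM and 7 at 0.1 FPKM or without a filter, 3 to 4 with any 1 mouse left out and, at 0.1 FPKM, 7 to 8. For SZ-A against HFD, 1 member was called, 2 (Cd68 and Lyz2) with FPKM rescaled to a common sum or with sample weights, and 0 at 0.1 FPKM, without a filter, with all 18 mice in a single fit, without the trend, or at a fold change over 2. With a mouse left out the count was 0 to 1 at both filters. At 0.1 FPKM the common sum gave 2. For SZ-A against NC, 2 members were called, 1 at 0.1 FPKM, without a filter or without the trend, and 0 with the common sum or at a fold change over 2. With a mouse left out the count was 0 to 2, and at 0.1 FPKM 1 to 3, where voom gave 2. Rescaling to a common sum moved the median log2 difference of all genes from -0.03 to 0.15 for HFD against NC, with 2100 genes called higher and 334 lower in place of 1092 and 970, and from 0.03 to -0.15 for SZ-A against HFD, with 10 higher and 206 lower in place of 8 and 7. The counts of fewer genes tested or fewer mice follow from those settings, and otherwise the cause was not tested.

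Of the 30 differences of single members, 28 kept their direction in all alternatives run. That of Fabp5 for HFD against NC was -0.048 with sample weights and, with a mouse left out, ran from -0.059 (without NC5) to 0.83. That of Spp1 for SZ-A against NC was -0.13 with sample weights and ran from -0.044 (without NC5) to 0.41. The labels do not say that same-numbered mice share a source. Correlations of their deviations lay between -0.12 and 0.29, the highest for HFD2 with SZ-A2. Such values cannot exclude a shared cage or processing day. With the replicate block, 0 members were called for SZ-A against HFD (Cd68, limma adjusted p = 0.13), and at 0.1 FPKM 2 were called for SZ-A against NC (Trem2 and Cd9). At 1 FPKM the block took the call of Tyrobp in that comparison (limma adjusted p = 0.0809) and added that of Cd9, lower (limma adjusted p = 0.0217). Members under 1 FPKM have no value from the settings that fit only genes of at least 1 or 5 FPKM, and Fabp5 none at 5 FPKM. The low members rest on as few as 4 fragments, which limits what could be detected.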

Other observations

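Of the marker lists not described above, dendritic cell, B cell, T and NK cell and platelet genes had 0 calls in HFD against NC among genes of at least 0.1 FPKM (limma), with an unadjusted p under 0.05 for 0, 0, 1 and 1 of the 6, 3, 6 and 3 genes tested. Of 8 stellate cell genes, 4 were called higher in HFD at 1 FPKM (limma), with a median log2 fold change of 0.42, and Rgs5, a marker of pericyte-like cells, rose from 8.33 ± 0.98 to 11.9 ± 1.51 FPKM (SD, n = 6). Of 6 endothelial genes 1 was called higher, and of 8 hepatocyte genes 3 were called lower. Among these 3 was the urea cycle enzyme Cps1, which fell from 1181 ± 288 to 440 ± 69.7 FPKM. Over all genes at 1 FPKM, 10.7% were called higher and 9.49% lower, so 1 of 6 endothelial genes lies near that share. Adipsin (Cfd) was the single adipocyte gene called, and Adipoq was 0.20 ± 0.27 FPKM in NC and 0.09 ± 0.16 FPKM in HFD mice. Of 3 bile duct genes tested 0 were called by limma, with an unadjusted p under 0.05 for 1.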
